A study of Mus musculus with 16 samples.

Results

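The genes described here encode the subunits of the mitochondrial respiratory chain and of ATP synthase, with a few factors that assemble them. Their members were taken by name alone, as every probe set annotated to a single protein-coding symbol that begins with Nduf, Sdha, Sdhb, Sdhc, Sdhd, Uqcr, Cyc1, Cox4 to Cox8 or Atp5. The rule uses no measured value, but it was set with earlier results of these data known. This gave 186 probe sets of 95 genes, out of 18193 genes with a probe set of their own on the array. Of these 95 genes, 34 encode subunits of complex I, 4 of complex II, 9 of complex III, 19 of complex IV and 17 of ATP synthase, and 12 encode assembly factors. A further 10 probe sets carry a member symbol together with another gene and were not used.

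The question was whether these genes differ between epithelial basal cells of the limbus, the border zone between cornea and conjunctiva, and basal cells of the cornea. Both groups came from the same 8 mice, described as wild type, and the labels name no treatment, strain or age. Laser capture microdissection, which cuts chosen cells out of a tissue section, gave 300 cells per site and mouse, whose RNA was amplified and hybridised to 1 Affymetrix array each, so there were 8 corneal and 8 limbal arrays. Amplified RNA of so few cells gives noisy signals, and the number of arrays sets the precision.

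The respiratory chain sits in the inner mitochondrial membrane. Complex I takes electrons from NADH and complex II from succinate, and both pass them through ubiquinone to complex III, then by cytochrome c to complex IV, which reduces oxygen. Complexes I, III and IV pump protons, and ATP synthase uses the returning protons to make ATP. Most subunits are encoded in the nucleus, a few in mitochondrial DNA, and several complex IV subunits exist as a form found in most tissues and a form of heart and skeletal muscle. Corneal epithelium is known to lean on glycolysis and stored glycogen as well as on respiration.

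The arrays differed in signal by scan day, and both arrays of each mouse had been scanned on the same day. The recorded station differed within mice 1, 7 and 8, with the corneal array on station 2 and the limbal array on station 1. In those mice site and station cannot be told apart. The median correlation between arrays was 0.48 on day 1 (mice 1 and 2), 0.24 on day 2 (mice 3 to 5) and 0.81 on day 3 (mice 6 to 8). The corneal array of mouse 5 stood apart: the mean log2 signal of 8 corneal epithelial markers, Krt12 and Krt5 among them, was 9.44 there and between 11.89 and 15.40 on the other 15 arrays. Krt12, the keratin of corneal epithelium, was at 15.18 or above on every limbal array. Values below are log2 of the deposited signal plus a constant of 89.4, a scale on which changes of dim probe sets are understated. Because the authors had scaled every array to a common mean, a value is relative to the rest of its array. In such captures, fewer cells of a type and less RNA per cell cannot be told apart.

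Cytochrome oxidase subunits 6a, 7a and 8 each have a ubiquitous and a muscle form, and the results below turn on these pairs, so their promoters are shown. Each is the RefSeq window on GRCm38.p6 from 250 bases before to 50 bases after the annotated start, on the strand of the gene, in lower case. Capitals mark matches, on either strand, to the core of the NRF1 motif (GCGCANGCG) or of the ETS motif bound by GABPA (CCGGAAG), both activators of respiratory genes. The core of YY1 (AAGATGGCG), searched in the same way, was in none of them. Cox6a2, the muscle form of subunit 6a, is named only. Cox6a1, a ubiquitous form, is at chr5:115348909-115349208 on the minus strand.
Cox6a1: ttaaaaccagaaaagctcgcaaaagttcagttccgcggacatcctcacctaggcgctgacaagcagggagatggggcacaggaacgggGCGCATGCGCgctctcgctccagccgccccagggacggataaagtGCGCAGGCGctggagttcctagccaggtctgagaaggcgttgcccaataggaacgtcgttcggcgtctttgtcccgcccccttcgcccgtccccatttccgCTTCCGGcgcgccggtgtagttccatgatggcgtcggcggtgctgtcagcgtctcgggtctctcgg
Cox7a1, a muscle form, is at chr7:30183921-30184220 on the plus strand.
Cox7a1: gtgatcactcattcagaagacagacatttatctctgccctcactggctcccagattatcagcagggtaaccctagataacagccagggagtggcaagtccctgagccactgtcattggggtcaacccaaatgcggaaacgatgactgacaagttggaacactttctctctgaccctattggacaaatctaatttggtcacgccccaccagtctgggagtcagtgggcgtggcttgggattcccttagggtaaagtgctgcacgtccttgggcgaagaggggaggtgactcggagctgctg
Its ubiquitous partner Cox7a2 is at chr9:79759804-79760103 on the minus strand.
Cox7a2: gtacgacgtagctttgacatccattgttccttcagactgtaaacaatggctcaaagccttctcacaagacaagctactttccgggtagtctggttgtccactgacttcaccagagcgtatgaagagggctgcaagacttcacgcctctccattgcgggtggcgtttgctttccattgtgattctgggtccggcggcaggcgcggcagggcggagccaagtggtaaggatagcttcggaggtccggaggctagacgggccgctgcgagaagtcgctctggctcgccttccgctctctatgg
Cox8a, the ubiquitous form of subunit 8, is at chr19:7217567-7217866 on the minus strand.
Cox8a: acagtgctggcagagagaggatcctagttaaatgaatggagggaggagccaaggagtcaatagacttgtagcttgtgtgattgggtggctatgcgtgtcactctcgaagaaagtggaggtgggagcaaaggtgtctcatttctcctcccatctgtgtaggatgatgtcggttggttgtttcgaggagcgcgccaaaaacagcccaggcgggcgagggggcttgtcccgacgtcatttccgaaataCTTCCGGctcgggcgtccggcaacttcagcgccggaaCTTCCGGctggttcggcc
Its muscle partner Cox8b is at chr7:140900397-140900696 on the minus strand.
Cox8b: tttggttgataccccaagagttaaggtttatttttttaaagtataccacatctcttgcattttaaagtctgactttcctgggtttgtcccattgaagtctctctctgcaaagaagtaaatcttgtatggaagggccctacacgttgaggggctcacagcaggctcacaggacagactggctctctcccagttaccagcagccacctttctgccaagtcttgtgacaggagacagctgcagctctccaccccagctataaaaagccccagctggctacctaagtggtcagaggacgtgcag

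The Cox6a1 window held 3 NRF1 matches, of which a pair overlap because the core reads nearly the same on both strands, and 1 ETS match. That of Cox8a held 2 ETS matches, and those of Cox7a2, Cox7a1 and Cox8b held none of the 3 cores. CpG dinucleotides numbered 32, 20 and 19 in the ubiquitous Cox6a1, Cox7a2 and Cox8a windows, and 7 and 2 in the muscle Cox7a1 and Cox8b windows. Windows were found for 78 of the 95 genes. An NRF1 core was in 21 of them (26.9%, against 8.83% of the 17492 windows of all genes), an ETS core in 21 (26.9% against 11.9%) and a YY1 core in 6 (7.69% against 1.94%). At least 1 of the 3 cores was in 40 (51.3%, against 20.3% of all windows), and no ETS match overlapped a YY1 match. The windows of these genes were also richer in CpG, with a median of 20 against 13, and in G and C, with 59% against 56.3%. A match is a description of letters in the window and does not show that a factor binds there, and a window without a match shows only that these letters are not in it.

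Of the 95 genes, 89 had a probe set above the limit for testing, a mean log2 signal of 8.27. The 6 that did not were Atp5l, Cox6b2, Ndufaf2, Ndufaf6, Ndufb1 and Ndufs5. By probe set, 162 of 186 were tested (87.1%), against 62.6% of all probe sets with 1 symbol.

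As a group these genes moved from array to array far more than they differed between limbus and cornea. The median of the 89 genes was lowest on the corneal array of mouse 5, at 8.32, and between 9.89 and 12.64 on the other 15 arrays. It was 8.32, 11.18 and 12.21 (lowest, median and highest) over the corneal arrays and 9.89, 11.33 and 12.64 over the limbal ones. The ranges of the sites overlapped, and the corneal array of mouse 5 lay below all limbal arrays. By scan day the order was day 2, with 8.32 to 10.88, then day 1, with 10.85 to 11.47, then day 3, with 11.98 to 12.64, so that day 3 did not overlap the others. The median of all 13570 tested genes stayed between 9.05 and 9.56 on all 16 arrays. The 99th percentile of the deposited, already scaled signal followed the same order of days. It ran from 2443 to 4908 on day 2, from 5171 to 10207 on day 1 and from 14916 to 18165 on day 3. The part of array quality in these levels was not tested.

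**Figure D1:**
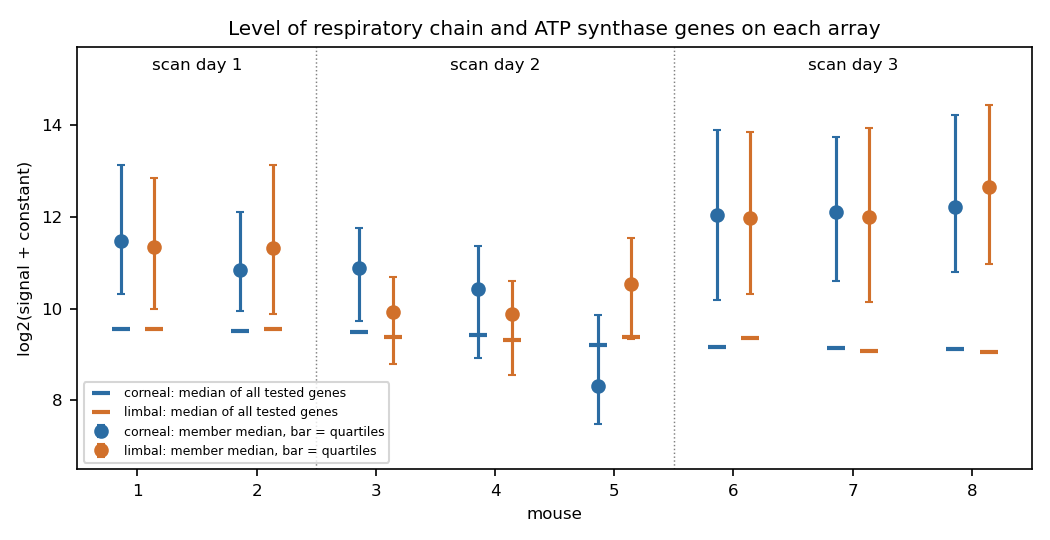
Median log2 signal of the 89 tested respiratory chain and ATP synthase genes on each array (points, bars from the lower to the upper quartile of the genes), by mouse and scan day, with the median of all tested genes as a dash. The points lie lowest on scan day 2, with the corneal array of mouse 5 at 8.32, and highest on day 3, at 11.98 to 12.64, while the dashes stay between 9.05 and 9.56.

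The members also followed one another across arrays. The median Pearson correlation between pairs of them was 0.59 over the 16 arrays, against 0.01 for pairs of all tested genes, and it was 0.35 against 0.00 within the 6 arrays of day 2 and 0.27 against 0.02 within the 6 of day 3. These are descriptions over points that share an array and its scaling. The median standard deviation of a member over the arrays of day 3 was 0.44, below the 0.58 of all tested genes, whereas over the arrays of day 2 it was 1.30, above their 1.1.

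None of the respiratory chain and ATP synthase genes passed the test for a difference between limbus and cornea. At an adjusted p of 0.05 (limma, paired by mouse, Benjamini-Hochberg over 27022 probe sets), 0 of 89 were called, where 0.133% of all tested genes were. At an unadjusted p of 0.05 there were 2 of 89, Cox7a1 and Ndufa9, where 6.71% of all tested genes were below that value. The differences, limbal minus corneal, ran from -0.93 for Ndufa9 to 1.22 for Cox7a1 with a median of 0.08, against a median of 0.01 for all tested genes. Signs were mixed: 53 were higher and 36 lower in limbal captures, 59.6% higher against 50.9% of all tested genes.

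The direction of the group differed from mouse to mouse. The median difference of the 89 genes was -0.20, 0.77, -0.94, -0.54, 1.89, -0.11, 0.06 and 0.21 in mice 1 to 8. Mouse 5 was the highest and mouse 3 the lowest, and 4 of the 8 mice lay on each side of zero. The standard deviation of these 8 medians was 0.87, so the overall 0.08 is far within the spread between mice. The same figure was 0.09 over all tested genes, 0.38 over assembly factors outside the name rule and 0.52 over citric acid cycle genes. It was 1.38 over genes of ADP and phosphate exchange and outer membrane channels, and 1.92 over the corneal epithelial markers. A spread of this size is thus not particular to the members. Without mouse 5 the median was -0.12 with 31 of 89 genes higher, and without mouse 2 it was -0.01 with 44 higher.

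How large a difference could have been missed was read from the intervals. The median standard error of a member was 0.46, close to the 0.44 of all tested genes. The 95% interval of the difference lay within 2 on either side of zero (a 4-fold change) for 87 of the 89 genes, and within 1 (2-fold) for 16 of them, or 18%, against 17% of all tested genes. On scan day 3 alone, with 3 mice, the median standard error was 0.33, against 0.43, and the interval lay within 1 for 46 of 89 members (51.7%), against 15.6% of all tested genes. The median signal of the members lay above that of all tested genes on those arrays, and the part of brightness was not tested.

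**Figure D2:**
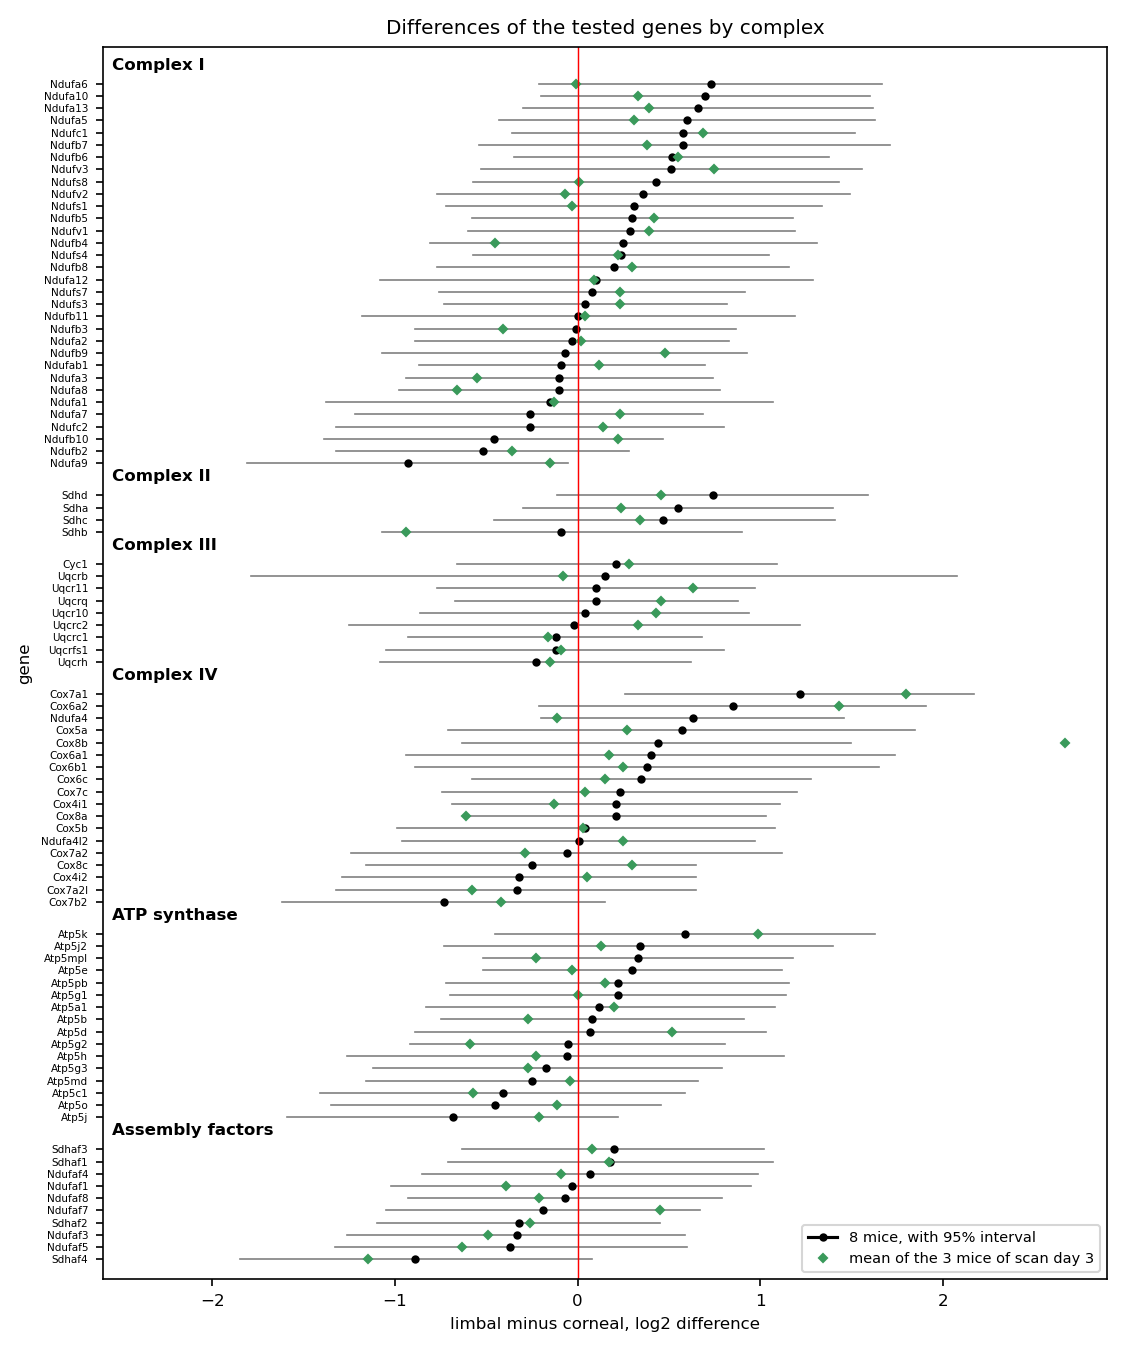
Limbal minus corneal log2 difference of each of the 89 tested genes by complex, with black points and grey lines for the estimate and 95% interval over 8 mice and green diamonds for the mean of the 3 mice of scan day 3. All lines but those of Cox7a1 and Ndufa9 cross zero, and neither of these passed the adjusted test.

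Complex I, the NADH dehydrogenase and the entry point for most electrons, had 20 of 32 tested subunits higher in limbal captures, with a median of 0.15 and 0 called. Ndufa9, an accessory subunit of the matrix arm, had the smallest p of the complex. Its corneal values were 9.40, 11.05 and 12.16 (lowest, median and highest of 8) and its limbal values 7.29, 10.08 and 12.26. The limbal arrays of mice 3 and 4, at 7.29 and 7.67, lay below every corneal array, and the others lay within the corneal range or, in mouse 8, just above it. The difference was -0.93 ± 0.43 (SE), limbal lower in 7 of 8 mice, at an adjusted p of 0.76 (limma). Most of it came from mouse 3, at -4.16, and without that mouse it was -0.46. On day 3 it was -0.15.

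Ndufa6 and Ndufa10, both accessory subunits, came next by p. Ndufa6 differed by 0.73 ± 0.46 and Ndufa10 by 0.70 ± 0.44, each with an adjusted p of 0.85 in limma, and on day 3 by -0.01 and 0.33. Of the core subunits, Ndufv1, which binds FMN and accepts electrons from NADH, differed by 0.29 ± 0.44. Ndufs1, the largest iron-sulfur subunit, differed by 0.31 ± 0.51, and each was higher in 4 of 8 mice. For Ndufs1 the mice ran from -3.21 in mouse 1 to 3.70 in mouse 4. The interval of Ndufv1 reached from -0.60 to 1.19, and its other tested probe sets were at -0.30 ± 0.44 and -0.43 ± 0.41.

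Complex II, succinate dehydrogenase, links the chain to the citric acid cycle. Of its 4 subunits 3 were higher, with a median of 0.51. Sdhd, a membrane anchor, read 9.39, 11.98 and 13.01 in corneal and 11.10, 12.48 and 13.82 in limbal captures. The groups overlapped, and the limbal array was the higher one in 7 of 8 mice, by 0.74 ± 0.42 with an adjusted p of 0.81 (limma). A second Sdhd probe set differed by -0.28 ± 0.43, so the direction depends on the probe set. Sdha, the flavoprotein that oxidises succinate, was higher in 6 of 8 mice, by 0.55 ± 0.42. Its other tested probe set was at 0.01 ± 0.40, higher in 4 of 8 mice. Sdhb, the iron-sulfur subunit, differed by -0.09 ± 0.49 over all mice and by -0.94 on day 3, where mice 6 and 7 were at -1.84 and -1.14 and mouse 8 at 0.17.

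Complex III, the cytochrome bc1 complex, had the narrowest range of differences over the 8 mice, with 5 of 9 subunits higher and all between -0.23 and 0.21. That holds for the brightest probe set of each gene, and other tested probe sets of the complex ran from -0.59 (Uqcrq) to 0.53 (Uqcr10). The mice themselves disagreed, with medians of the complex from -1.22 in mouse 3 to 1.26 in mouse 5. Cyc1, cytochrome c1, differed by 0.21 ± 0.43 and Uqcrfs1, the Rieske iron-sulfur protein, by -0.12 ± 0.46. Uqcrh, the hinge protein, had the smallest p at -0.23 ± 0.42, and its other probe set was at 0.27 ± 0.45. The interval of Cyc1 reached from -0.66 to 1.09, which takes in a 2-fold difference. Uqcrb had the widest interval of all members, from -1.79 to 2.08, which takes in a 4-fold one.

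Complex IV, cytochrome oxidase, reduces oxygen to water, and 13 of its 18 tested genes were higher, with a median of 0.22. Cox4i1, the ubiquitous form of subunit 4, read 8.34, 12.19 and 13.92 in corneal and 10.41, 12.29 and 14.20 in limbal captures. The ranges overlapped and 5 of 8 mice were higher in limbus, by 0.21 ± 0.44. Cox5a, another core nuclear subunit, read 8.17, 14.18 and 15.19 in corneal and 11.12, 14.49 and 15.45 in limbal captures. Its 8.17 was again the corneal array of mouse 5, whose pair differed by 5.82 while the other mice lay between -1.64 and 1.45. The difference was 0.57 ± 0.63 with that mouse and -0.18 without it.

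Cox6a1 differed by 0.40 ± 0.66 and Cox6b1 by 0.38 ± 0.63, and without mouse 5 by -0.28 and -0.30. Ndufa4, now counted among complex IV subunits, was higher in 7 of 8 mice by 0.63 ± 0.41 and was at -0.11 on day 3. Its paralogue Ndufa4l2, known as a hypoxia-induced gene, differed by 0.01 ± 0.48, and Cox4i2, a form of subunit 4 linked to oxygen sensing in lung, by -0.32 ± 0.48. Cox7a2l, which helps to join complexes III and IV, differed by -0.33 ± 0.49. Cox7b2, a form known from testis, was the only member with the same sign in all mice, lower in limbal captures of 8 of 8. That is 1 of 89 members, where 1.19% of all tested genes had the same sign in all 8 mice. Its values were 6.90, 8.43 and 10.42 in corneal and 6.73, 7.62 and 9.99 in limbal captures, dim and overlapping. The difference was -0.73 ± 0.43 (limma adjusted p = 0.83). Its limbal mean of 8.01 lay below the limit of 8.27, so it was tested only through its corneal signal.

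The most positive differences of all members belonged to Cox7a1 and Cox6a2, muscle forms of complex IV subunits. Cox7a1 read 6.80, 7.69 and 12.38 in corneal and 7.14, 9.89 and 12.38 in limbal captures. The groups shared nearly their whole range, and the corneal arrays of mice 1 and 8 were high, at 12.38 and 11.16. The difference was 1.22 ± 0.47, limbal higher in 5 of 8 mice (limma adjusted p = 0.63). Mouse 6 had 3.94, mouse 5 had 3.50, mouse 4 had 1.55 and mouse 8 had 1.22, whereas mice 1, 2, 3 and 7 ran from -0.33 to 0.23. On scan day 1 alone it was -0.30.

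Cox6a2 read 6.96, 8.46 and 13.33 in corneal and 7.30, 10.65 and 12.87 in limbal captures, again with overlapping ranges. It differed by 0.85 ± 0.52, higher in 6 of 8 mice, with 3.58 in mouse 6, 3.11 in mouse 5 and -3.74 in mouse 3. Its second probe set differed by 0.80 ± 0.47, higher in 4 of 8 mice. The mouse differences of these probe sets correlated at only 0.17. Cox8b read 6.73, 9.17 and 12.81 in corneal and 7.10, 9.50 and 12.81 in limbal captures. Its ranges overlapped as those of Cox7a1 did, and the difference was 0.44 ± 0.53. It was 5.19 in mouse 6, and without mouse 6 it was -0.24. The ubiquitous partners Cox6a1, Cox7a2 and Cox8a differed by 0.40, -0.06 and 0.21.

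Markers of other cell types also differed between the sites. Keratocyte and fibroblast markers were higher in limbal captures in 9 of 9 (median 2.01, 2 called), conjunctival markers in 5 of 5 (median 1.83, 1 called) and immune markers in 6 of 7 (median 0.86, 1 called). The mean of the stromal markers ran from 7.86 to 11.01 over corneal and from 8.90 to 12.99 over limbal arrays, and their median difference in mouse 6 was 4.67. The part of these cells in the differences of the members was not tested. Of 12 muscle markers, among them the fast myosin gene Myh1 and the oxygen store Mb, 11 were higher in limbal captures, with a median of 0.69 and 0 called. The mean of the 12 ran from 7.63 to 12.85 over corneal and from 7.49 to 13.71 over limbal arrays. Per mouse their median difference was -0.83, -0.21, 0.33, -0.21, 2.38, 4.70, -0.60 and 0.95 in mice 1 to 8, largest in mice 6 and 5, the mice in which Cox7a1 differed most. Ckm, the muscle creatine kinase, differed by -0.12, Acta1, skeletal actin, by 0.20 and Myh1 by 2.86.

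Array by array the muscle mean was between 10.80 and 13.71 on the limbal arrays of mice 1, 5, 6 and 8 and the corneal arrays of mice 1 and 8, and between 7.49 and 8.82 on the other 10. On those 6 arrays Cox7a1 read 10.53 to 12.38, against 6.80 to 9.57 on the other 10, and Cox6a2 read 11.05 to 13.33 against 6.96 to 11.04. Cox8b was at 11.86 to 12.81 on 5 of the 6, at 7.10 on the limbal array of mouse 5, and at 6.73 to 10.35 on the other 10. The ubiquitous partners did not part in this way: Cox6a1 read 12.96 to 16.04 against 7.80 to 16, Cox7a2 12.91 to 15.72 against 10.76 to 15.72, and Cox8a 7.48 to 11.49 against 7.49 to 11.13. These arrays are not groups of the study, and the values are a description with no test. Cidea, a gene of brown fat, read 6.93 to 12.50 on the 6 arrays and 6.63 to 11.36 on the other 10, and Ucp1 was below the limit for testing. The part of muscle tissue in the differences of the 3 muscle forms was not tested.

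**Figure D3:**
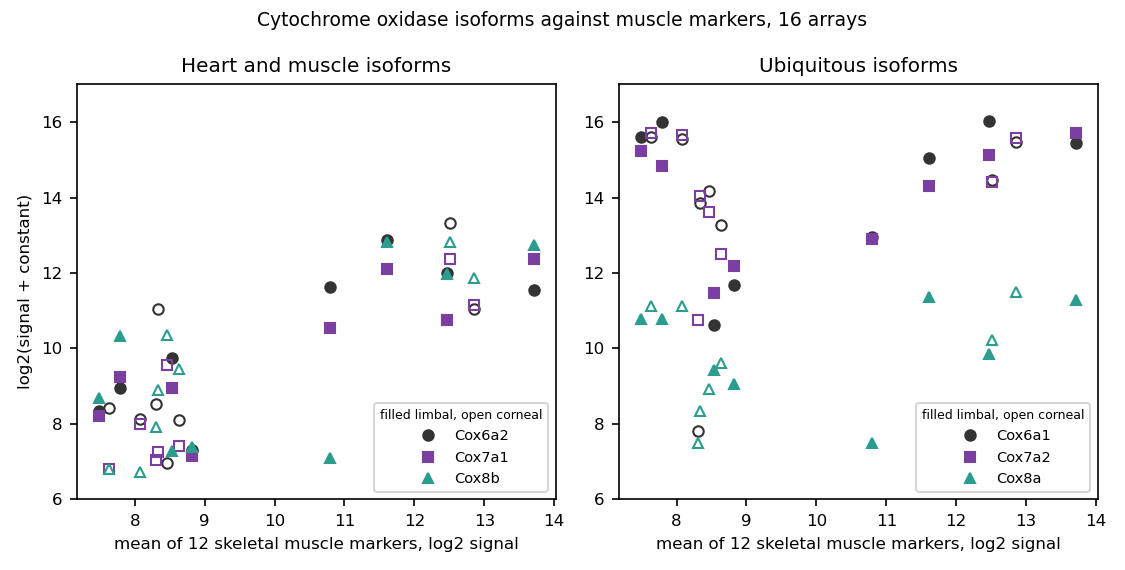
Log2 signal of the muscle forms (left) and ubiquitous forms (right) of 3 cytochrome oxidase subunits on each of the 16 arrays, against the mean log2 signal of 12 skeletal muscle markers on that array, filled for limbal and open for corneal. Cox7a1 lies at 10.53 to 12.38 where the muscle mean is 10.80 or more and at 6.80 to 9.57 elsewhere, while the values of the ubiquitous forms overlap between both sides.

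ATP synthase makes ATP from the proton gradient, and its 16 tested genes were divided, with 9 higher and 7 lower and a median of 0.07. No difference was called for the catalytic pair. Atp5b, the beta subunit, read 7.55, 10.23 and 12 in corneal and 8.05, 10.03 and 11.86 in limbal captures. The ranges overlapped and 4 of 8 mice lay on each side, with a difference of 0.08 ± 0.41 and an interval from -0.75 to 0.91. Atp5a1, the alpha subunit, differed by 0.12 ± 0.47, with an interval from -0.83 to 1.08, which takes in a 2-fold difference. The 3 genes of the membrane c ring, which encode the same mature protein, differed by 0.22 (Atp5g1), -0.05 (Atp5g2) and -0.17 (Atp5g3).

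The smallest p-values of ATP synthase belonged to Atp5j, Atp5k and Atp5o. Atp5j, a peripheral stalk subunit, was at -0.68 ± 0.44, with -3.88 in mouse 3, and -0.23 without that mouse. Atp5o, which joins the stalk to the catalytic head, was at -0.45 ± 0.45, and its other tested probe set at 0.36 ± 0.49. Atp5k, a subunit at the dimer interface in the membrane, was at 0.59 ± 0.51, with 4.93 in mouse 5, and -0.03 without it. On day 3 Atp5k was at 0.99, with 0.61, 1.49 and 0.88 in mice 6 to 8. Its other tested probe sets were at 0.30 ± 0.46 and -0.51 ± 0.43 over the 8 mice. On day 3 its probe sets ran from 0.23 to 0.99.

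Assembly factors leaned the other way, with 3 of 10 tested genes higher and a median of -0.13. Sdhaf4, which helps to attach the flavoprotein of complex II to its partner, read 7.15, 10.50 and 11.37 in corneal and 7.34, 9.11 and 10.29 in limbal captures. The groups overlapped, although the limbal array was the lower one in 6 of 8 mice. Its difference was -0.89 ± 0.47 with an adjusted p of 0.80 (limma), and mouse 4 stood lowest at -4.03. The 10 tested Ndufaf and Sdhaf genes ran from -0.89 to 0.20.

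**Figure D4:**
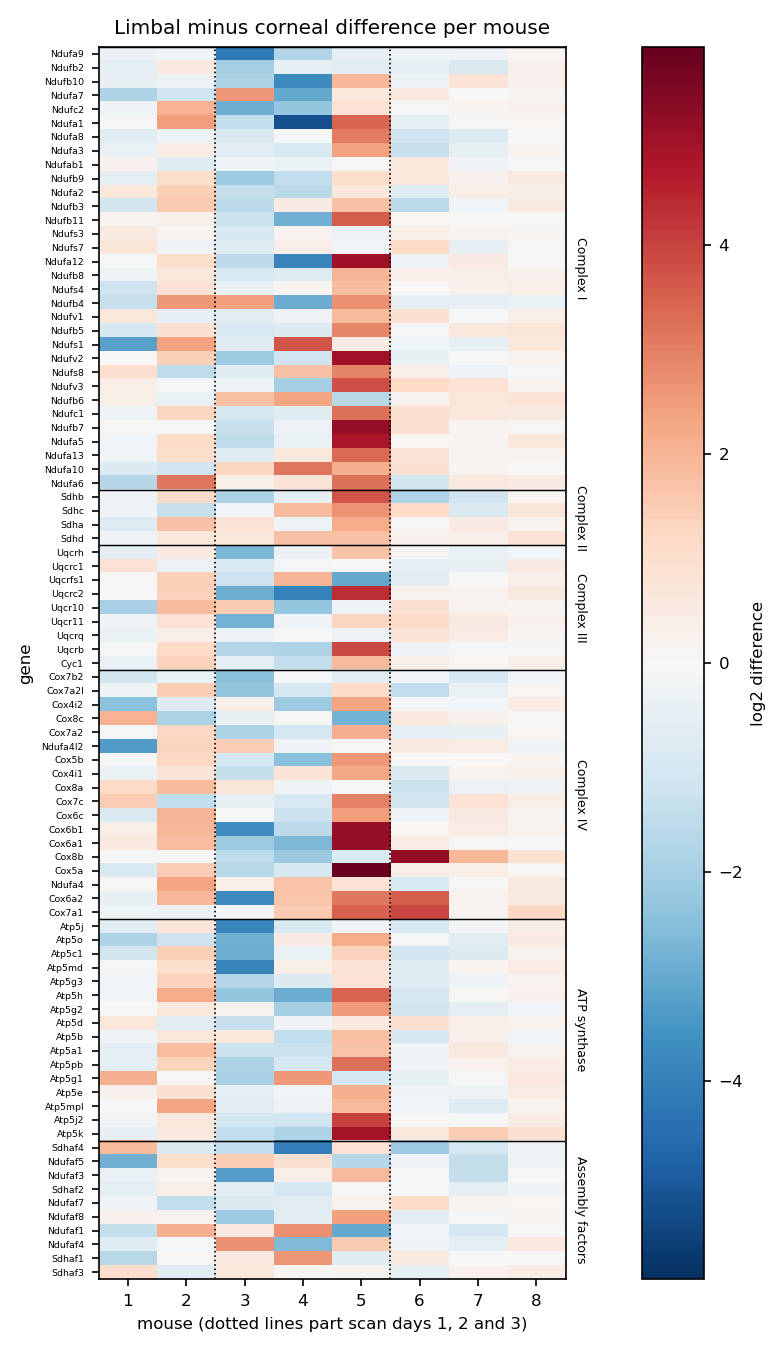
Limbal minus corneal log2 difference of each of the 89 genes (rows, by complex) in each of the 8 mice (columns), red for higher and blue for lower in limbal captures. The column of mouse 5 is mostly red (median 1.89) and that of mouse 3 mostly blue (median -0.94), while the columns of mice 6 to 8 are pale, with medians of -0.11, 0.06 and 0.21.

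The 3 mice of scan day 3 gave the tightest account. Their arrays correlated best with each other, and 71 of the 89 genes (79.8%) had a mean difference within 0.5 of zero, against 64.3% of all tested genes. The median was 0.05 with 50 genes higher, from -1.15 for Sdhaf4 to 2.67 for Cox8b. At an unadjusted p of 0.05 there were 8 of 89 genes, near the 10.0% of all tested genes below it, and 0 passed the adjusted threshold in limma. Those 8 were Cox8b, Cox7a1, Cox6a2, Atp5k, Ndufv3 and Ndufc1, higher, and Sdhb and Sdhaf4, lower. The 3 largest were the muscle forms of complex IV, which in mouse 6 were at 5.19, 3.94 and 3.58. By complex the day 3 medians were 0.18 for complex I, 0.29 for II, 0.28 for III, 0.10 for IV, -0.07 for ATP synthase and -0.23 for assembly factors.

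Different probe sets of a gene often disagreed, which bounds how far any single value can be read. Of 48 genes with several tested probe sets, 24 had all of them on one side and 24 had them on both sides of zero. The median spread between the probe sets of a gene was 0.48, where the median size of the difference of these 48 genes, regardless of sign, was 0.28. The widest spread was 1.42, for Cox5b. Over all 162 tested probe sets 88 were higher and 74 lower, with a median of 0.04, and 0 were called.

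The rest of the pathway gave the same count of calls, 0 in each list. ND5, the complex I subunit from mitochondrial DNA and the only such gene tested, differed by 0.86 ± 0.53, and Cycs, cytochrome c, by 0.63 ± 0.55, while its other 3 probe sets lay between -0.43 and -0.20. Of 12 citric acid cycle genes 6 were higher, with a median of -0.10, and Cs, citrate synthase, was at -0.27 ± 0.47. Of 6 genes of ADP and phosphate exchange and the outer membrane channels 5 were higher, with a median of 0.08. Vdac3, an outer membrane channel named after its value was seen, was the lower one at -1.16 ± 0.47 (limma adjusted p = 0.66). Of 23 assembly factors outside the name rule 6 were higher, with a median of -0.19.

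Among regulators of mitochondrial biogenesis, Ppargc1b, a coactivator of respiratory genes related to Ppargc1a, read 7.14, 7.48 and 9.40 in corneal and 8.21, 9.48 and 10.71 in limbal captures. The ranges overlapped, and the limbal array was the higher one in 8 of 8 mice. Its corneal mean of 7.91 lay below the limit of 8.27, so it was tested only through its limbal signal. The difference was 1.44 ± 0.44 and did not pass, with an adjusted p of 0.36 (limma). Of the 10 tested regulators 6 were higher, with a median of 0.11. Nrf1 was at 0.43 ± 0.47, although another of its probe sets was at -0.67 ± 0.43 and higher in 1 of 8 mice. Gabpa was at 0.36 ± 0.41 and Tfam, which packages and transcribes mitochondrial DNA, at -0.66 ± 0.43. Yy1 was at -0.77 ± 0.39, lower in 8 of 8 mice, but another of its probe sets was at 0.59. Ppargc1b and Yy1 were named after their values were seen, and 1.19% of all tested genes had the same sign in all 8 mice.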

How the data were processed

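The members, gene lists and tests were chosen with earlier results of these data known. Gene expression was measured on 16 Affymetrix Mouse430_2 arrays, of corneal and limbal basal cells of 8 mice. The deposited table holds linear intensity values, 1 for every probe set of an array, and how the authors computed them is not given in the sources used here. Their mean, with 2% cut off at both ends, was 500.0 on every array. Scan days and stations came from the array information files. Sample names in those files differed from the titles for most mice, but matched within each mouse.

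Values were taken as log2(intensity + 89.4), with the 25th percentile of the whole table as the constant. Of 45101 probe sets, 64 were controls, 34945 had 1 symbol, 932 several and 9160 none. Those with a mean above the 40th percentile (8.27) were tested, 27022 in all, and the brightest of a gene's tested probe sets stood for it (13570 genes). Of the probe sets with 1 symbol, 99.4% had an Entrez identifier in the RefSeq table. Probe sets ending in _x_at, _s_at or _a_at can bind several transcripts. They made up 85 of the 162 tested probe sets of the members.

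limma 3.58.1 in R 4.3.3 was fitted with a term for each mouse, a variance trend and Benjamini-Hochberg adjustment, at a threshold of 0.05, with statmod 1.5.0 for the random mouse term. The titles number the mouse, and both captures came from the same animal. Deviations from the group mean correlated with a median r of 0.30 between the arrays of a mouse and -0.06 between mice. This r was above 0.1 in 7 of 8 mice and 0.03 in the lowest. Because the arrays of a mouse also share a scan day, these values cannot tell a shared animal from a shared day. The fit was also tried on simulated data. There it detected 2% of differences set to 1 on the log2 scale. Differences set to 2 were detected in 58%, and those set to 3 in 90%. In each case 5 calls were wrong. The lack of calls among the members therefore says little about differences near 1. Error is the standard error of the fit unless given as a standard deviation, and intervals are 95%.

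Genes named are core subunits and isoform sets listed by hand, and the 3 smallest p-values of complexes I, IV and ATP synthase, with 1 each of complexes II and III and the assembly factors. Others were named after their values were seen. Alternatives covered the mouse term, constant, filter, normalization, array weights, probe set choice, scan days and each mouse left out. Promoter windows are RefSeq's, on GRCm38.p6. The platform annotation named the probe sets.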

Additional observations from a re-analysis of the deposited data

Results flagged for a closer look

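In 14 of the 108 groups of 8 values examined, 1 value lay farther from the rest than Dixon's 95% limit, and chance alone flags about 1 in 20 groups. Mouse 5 accounts for 9 of the 14. On its corneal array the median of the members was 8.32, with the other corneal arrays at 10.42 to 12.21. The same array was lowest for Cox5a (8.17, others 12.06 to 15.19), Cox6a1 (7.80, others 13.28 to 15.60), Cox6b1 (8.24, others 12.28 to 15.31), Atp5g2 (7.31, others 10.54 to 12.04), Atp5k (6.90, others 10.79 to 13.17) and Atp5o (7.24, others 10.14 to 11.13). The Cox5a difference of mouse 5 was 5.82, with the other mice at -1.64 to 1.45, and its limbal array was highest for Cox4i2, at 10.87 with the others at 7.0 to 8.45.

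Mouse 3 was the lowest for 3 differences, Ndufa9 at -4.16 (others -1.74 to 0.10), Atp5j at -3.88 (others -0.94 to 0.77) and Cox7b2 at -2.41 (others -1.09 to -0.06). Its limbal array was the lowest for Uqcrh, at 8.77 with the others at 10.39 to 11.54. In mouse 1 the difference of Ndufa4l2 was -3.33, with the other mice at -0.24 to 1.45. Mice 3 and 5 were both scanned on day 2, on which arrays correlated least.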

How the results depend on the processing

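Over 24 alternatives, limma called 0 members in every one. The median difference of the members was 0.08. It ran from -0.12 to 0.25 when single mice were left out and from -0.07 to 0.22 otherwise, and it fell below zero without mouse 2 (-0.01), without mouse 5 (-0.12) and without probe sets ending in _x_at, _s_at or _a_at (-0.07, over 66 genes). Of 34 named and tested genes, Cox6a2, Ndufa9 and Sdha kept their direction in all 24, Sdha with a lowest value of 0.01. Atp5o and Cox7b2 kept theirs in the 23 that gave a value, Atp5o at -0.04 with its probe sets averaged, and 29 genes changed direction at least once. The medians of complexes I to IV, ATP synthase and assembly factors all changed sign at least once, those of II and assembly factors only without such probe sets and that of IV only without mouse 5. The count over all genes was 18. It was 83 with array weights, 11 with log2(signal + 16), 2 with a gene's probe sets averaged, 8 with a stricter filter, 10 without such probe sets, 73 on scan day 1 alone, and from 0 (without mouse 2) to 45 (without mouse 8) with single mice left out. It was 0 after quantile normalization (805 at an unadjusted p under 0.05), 0 on day 2 (505) and 0 on day 3 (1363). Without the replicate block, that is with the pairing by mouse dropped, it was 0 (431), and 0 of the members were below an unadjusted p of 0.05. The causes were not tested. Dim probe sets, near the limit of 8.27, are the least certain.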

Other observations

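Among related genes outside the name rule, Bcs1l, which inserts the Rieske protein into complex III, was higher in limbal captures by 1.04 ± 0.43, with an adjusted p of 0.68 in limma. Nubpl, an iron-sulfur cluster factor of complex I, was at -0.97 ± 0.41 (adjusted p = 0.70), and Tfb1m, a methyltransferase of mitochondrial ribosomal RNA, at -0.84 ± 0.41 (adjusted p = 0.77). None of these passed, and all were named after their values were seen.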
